A study of Homo sapiens with 12 samples.

Results

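The genes described here are 52 genes of the nuclear pore and of nuclear transport, out of 18405 genes measured. They were chosen by symbol: every gene whose symbol is NUP, KPNA, KPNB, XPO or IPO followed by a digit, plus AAAS, NDC1, TPR, RAE1, SEH1L, SEC13, RANBP2, TNPO1 and CSE1L. A gene was read from the probe set with a single symbol and the highest mean over the arrays. That mean is the value that chose the probe sets, and it decided nothing here, since 0 of the 52 genes had more than 1 such probe set. Of the 52, 51 are protein-coding, and NUP210P1 is a pseudogene. No filter on low values was applied, so all 52 entered the tests. NUP62 was not measured on its own, because its probe set also carries IL4I1.

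Expression was measured on 12 arrays, 3 in each of 4 groups, in 2 established cell lines of squamous carcinoma of the head and neck, JHU-029 and FaDU. The groups were JHU-029 cells with lentiviral shRNA against TP63 (shTP63), JHU-029 cells with the control shRNA (shControl), FaDU cells with shTP63 and FaDU cells with shControl. RNA was taken 72 hours after knockdown, all groups having received a lentiviral shRNA. TP63 codes for p63, a transcription factor that basal keratinocytes depend on, and its own level is not analysed here, so the knockdown was not checked and is taken from the labels. The labels do not say whether replicates came from separate cultures, and p-values then measure only the spread between these samples. 2 of the 3 FaDU shControl arrays (replicates 1 and 2) carry an extra word in their titles.

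All values are log2 of the deposited intensity, which does not measure the level of a gene against that of another. Where intensities are set beside the median of all genes, ranked or summed over markers, they are signals of probe sets only. Between arrays of a group, log2 intensities correlated at 0.995 to 0.998. Of 10 measured keratinocyte markers, 9 lay above the median of all genes on every array. Of the fibroblast, immune and endothelial markers, 10 measured in each list, 7 in each lay below it on every array. In bulk samples, fewer cells of a type and less RNA per cell cannot be told apart. The 52 genes were mostly well expressed, 47 of them above the median of all genes, and their median SD between arrays was 0.0496 in JHU-029 and 0.0666 in FaDU, against 0.0798 and 0.105 over all genes.

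Nuclear pore complexes are the channels through which proteins and RNA pass the nuclear envelope. Their scaffold is built from the Y complex and the inner ring, held in the membrane by integral proteins, with filaments on the cytoplasmic face, a basket on the nuclear face and a channel lined with phenylalanine-glycine repeats. Importins and exportins carry cargo through that channel. Importin alpha proteins bind classical import signals and travel with importin beta (KPNB1), the other karyopherins bind cargo directly, and the GTPase Ran sets the direction of transport.

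Promoters of 45 of the 52 genes were found in the RefSeq table for GRCh38.p14, each from 250 bases before to 50 bases after a transcription start. 4 are printed here because their genes carry the findings below: IPO4 had the largest fall, SEH1L and NUP107 are subunits of the Y complex that fell, and NUP58 rose in both lines. 5 motifs were searched on both strands: the ETS motif spelled CCGGAAG, the E-box spelled CACGTG, the CCAAT box, the NRF1 motif by its palindromic consensus, and E2F motifs spelled TTTCGCGC, TTTGGCGC or TTTCCCGC. Capitals mark matches to these motifs on either strand, other than the NRF1 motif, which is left in lower case.
IPO4 (chr14:24188767-24189066, minus strand): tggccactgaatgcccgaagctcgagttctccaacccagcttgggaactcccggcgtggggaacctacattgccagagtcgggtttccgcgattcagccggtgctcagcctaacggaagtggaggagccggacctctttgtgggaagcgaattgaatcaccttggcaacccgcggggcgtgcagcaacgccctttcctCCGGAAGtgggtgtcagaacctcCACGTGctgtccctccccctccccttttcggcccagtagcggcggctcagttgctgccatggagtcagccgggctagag
SEH1L (chr18:12947761-12948060, plus strand): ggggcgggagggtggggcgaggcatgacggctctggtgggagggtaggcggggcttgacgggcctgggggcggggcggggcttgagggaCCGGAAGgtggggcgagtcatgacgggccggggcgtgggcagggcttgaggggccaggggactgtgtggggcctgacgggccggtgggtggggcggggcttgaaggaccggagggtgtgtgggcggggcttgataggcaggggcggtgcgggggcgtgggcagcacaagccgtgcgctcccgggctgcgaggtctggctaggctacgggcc
NUP107 (chr12:68686728-68687027, plus strand): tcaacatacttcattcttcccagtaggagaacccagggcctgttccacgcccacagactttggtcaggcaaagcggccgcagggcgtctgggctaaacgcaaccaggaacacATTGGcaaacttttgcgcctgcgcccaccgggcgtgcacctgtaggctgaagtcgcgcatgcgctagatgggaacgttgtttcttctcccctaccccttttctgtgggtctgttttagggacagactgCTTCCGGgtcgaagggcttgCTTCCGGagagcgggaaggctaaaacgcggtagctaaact
NUP58 (chr13:25301375-25301674, plus strand): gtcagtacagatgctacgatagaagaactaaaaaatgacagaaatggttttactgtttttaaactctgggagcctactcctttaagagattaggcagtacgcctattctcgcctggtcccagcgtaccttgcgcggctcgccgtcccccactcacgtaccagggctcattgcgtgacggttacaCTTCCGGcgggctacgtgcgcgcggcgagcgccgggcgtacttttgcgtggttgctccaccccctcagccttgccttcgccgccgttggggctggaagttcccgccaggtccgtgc

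The IPO4 window held an ETS match 52 bases and an E-box 29 bases before the start. The SEH1L window held an ETS match 161 bases before the start, and the NUP58 window held one 66 bases before it. The NUP107 window held ETS matches 10 bases before the start and just inside the transcript, an NRF1 match 84 bases before it and a CCAAT match 138 bases before it. The ETS motif stood in 13 of the 45 genes (28.9%), against 10.26% of all 35116 promoter windows and 12.16% of all genes in that table. CCAAT stood in 22 (48.9%, against 39.72% of all genes), the E-box in 6 (13.3%, against 8.77%), E2F motifs in 3 (6.7%, against 3.3%) and the NRF1 motif in 2 (4.4%, against 1.52%). Of the 16 genes with a promoter that fell in FaDU, described next, 6 held the ETS motif and 11 held CCAAT, against 7 and 11 of the other 29. The E-box stood in 2 of these 16 and in 4 of the other 29, E2F motifs in 0 and 3, and the NRF1 motif in 1 and 1. The matches are descriptions of letters in these windows, with no test.

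Knockdown of TP63 in FaDU cells was accompanied by lower levels of many pore and transport genes. Of the 52 genes, 18 fell and 3 rose (limma, adjusted p under 0.05 over all 18405 genes), and 31 did not pass. These calls make up 40.4% of the genes, against 26.6% of all genes. The fallers made up 34.6% of the genes, against 14.2% of all genes, and the risers 5.77%, against 12.5% of all genes. The median change was -0.11, against 0.02 over all genes. The groups of 3 arrays did not overlap for 27 of the 52 genes (51.9%), against 36.1% of all genes. With the dimmer part of all genes left out, 22 of 47 fell (46.8%), against 28.9% of the brighter genes, and 3 rose (6.38%, against 21.7%). That filter removed KPNA5 and NUP62CL, which had passed, and IPO7, KPNA4, NUP205, NUP214, NUP98 and RAE1 passed in addition. Without FaDU shControl replicates 1 and 2, which leaves 1 control array assumed to vary like the other groups, 11 fell and 2 rose, and the calls of IPO8, KPNB1, NUP153, NUP188, NUP35, NUP37, NUP62CL and XPO4 were lost.

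**Figure D1:**
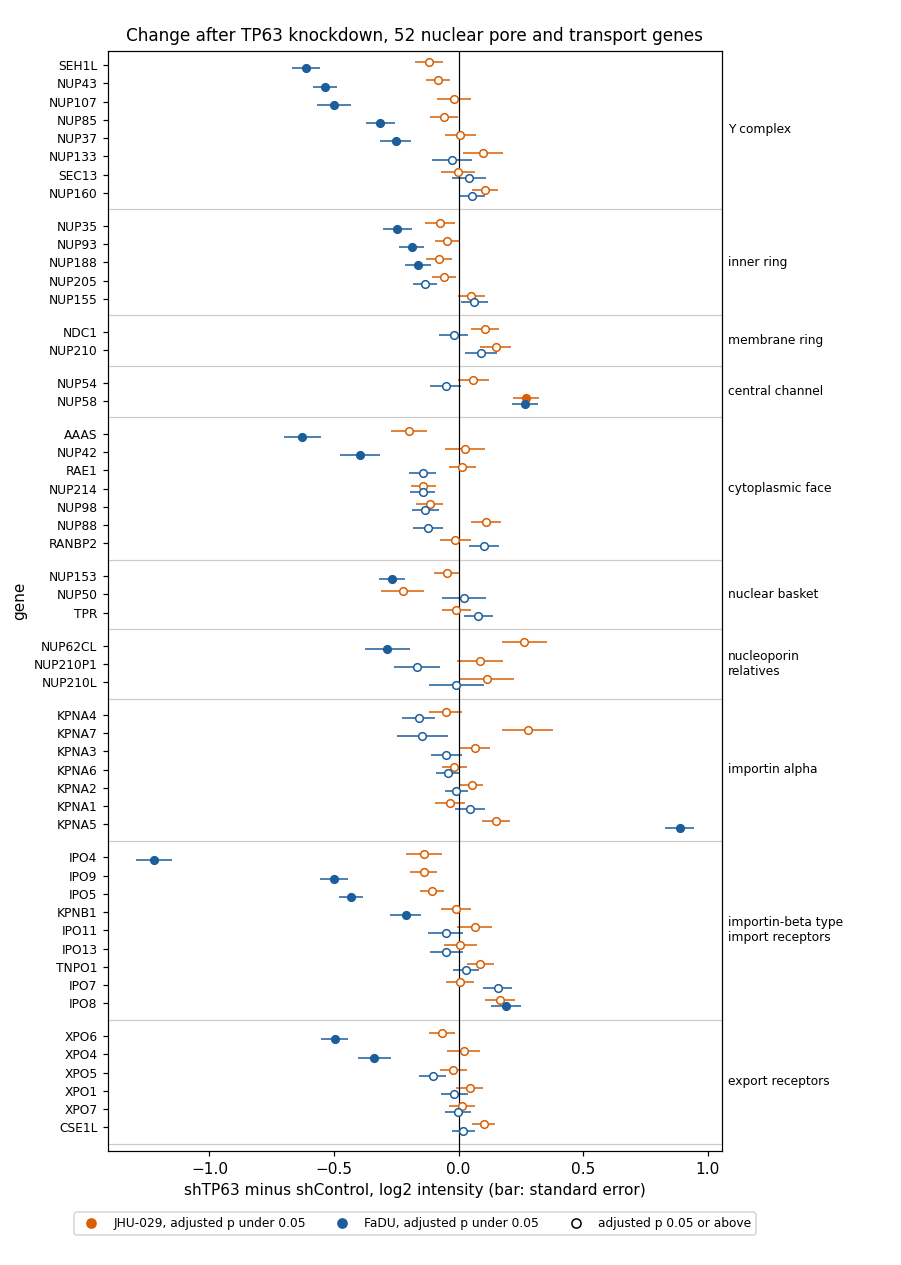
Change after TP63 knockdown (shTP63 minus shControl, log2 intensity, with the standard error of the limma fit) in JHU-029 (orange) and FaDU (blue) for the 52 genes, arranged by their place in the pore or their role in transport, with filled points for an adjusted p under 0.05. In FaDU IPO4 stands farthest to the left at -1.22 and KPNA5 farthest to the right at 0.89, while all JHU-029 points lie between -0.22 and 0.28.

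The Y complex is the scaffold unit that stacks into the outer rings of the pore. Of the 8 genes grouped with it here, 5 fell in FaDU, 0 rose, and the median change was -0.28. This and the other counts by place or role cover few genes each. They stand beside 14.2% of all genes falling and 12.5% rising in FaDU, or 28.9% and 21.7% of the brighter genes. NUP98 was grouped with the cytoplasmic face only. SEH1L (probe set 8020254), a beta-propeller subunit that also serves the GATOR2 complex of mTORC1 control, had 9.56, 9.65 and 9.63 in FaDU shTP63, against 10.26, 10.13 and 10.29 in FaDU shControl. Every knockdown array lay below every control array, and SEH1L fell by 0.61 (SE 0.06, adjusted p = 6.29e-06), a 1.53-fold decrease. NUP43 (probe set 8130129), another beta-propeller subunit, had 10.05, 10.09 and 10.07 in FaDU shTP63, against 10.57, 10.59 and 10.65 in FaDU shControl. These groups lay apart as well, and NUP43 fell by 0.54 (SE 0.05, adjusted p = 5.55e-06). NUP107 (probe set 7956949), a subunit of the stem, had 9.64, 9.70 and 9.58 in FaDU shTP63, against 10.18, 10.04 and 10.20 in FaDU shControl. It fell by 0.50 (SE 0.07, adjusted p = 0.00015). NUP85 fell by 0.31 (SE 0.06, adjusted p = 0.00136) and NUP37 fell by 0.25 (SE 0.06, adjusted p = 0.0092). The other 3 genes of this group did not pass. NUP133, which partners NUP107 in the stem, changed by -0.03 (SE 0.08, adjusted p = 0.859). NUP160 changed by 0.05 (SE 0.05, adjusted p = 0.502) and SEC13, which is shared with COPII vesicle coats, by 0.04 (SE 0.07, adjusted p = 0.715).

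In the inner ring, 3 of 5 genes fell in FaDU and 0 rose, by smaller amounts. Of all genes 14.2% fell, and of the brighter genes 28.9%. NUP35 fell by 0.25 (SE 0.06, adjusted p = 0.00759), NUP93 by 0.19 (SE 0.05, adjusted p = 0.0145) and NUP188 by 0.16 (SE 0.05, adjusted p = 0.0317). NUP205 changed by -0.14 (adjusted p = 0.0599), passing with dim genes left out, with a variance trend and without FaDU shControl replicate 2, and NUP155 by 0.06 (adjusted p = 0.452). Of the transmembrane nucleoporins, NDC1 changed by -0.02 (adjusted p = 0.86) and NUP210 by 0.09 (adjusted p = 0.344). NUP93 missed the threshold without FaDU shTP63 replicate 1 (adjusted p = 0.0521), and NUP188 missed it without FaDU shControl replicate 1 or 2 or FaDU shTP63 replicate 1 (up to 0.11) and also under cyclic loess and array weights. Both calls were lost with each line fitted alone (adjusted p = 0.0882 for NUP93 and 0.141 for NUP188).

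On the cytoplasmic face, 2 of 7 genes fell in FaDU and 0 rose, a falling share near the 28.9% of the brighter genes. AAAS (probe set 7963646), which encodes ALADIN, the nucleoporin mutated in triple A syndrome, had 8.39, 8.59 and 8.40 in FaDU shTP63, against 9.04, 9.00 and 9.22 in FaDU shControl. The groups lay apart, and AAAS fell by 0.63 (SE 0.07, adjusted p = 4.95e-05), the largest fall among the nucleoporins. NUP42, which helps the export factor GLE1 to release mRNA from the pore, fell by 0.39 (SE 0.08, adjusted p = 0.00262). NUP214, NUP98, RAE1 and NUP88 had changes between -0.14 and -0.12 that did not pass (adjusted p from 0.0516 to 0.159). With dim genes left out or with a variance trend NUP214, NUP98 and RAE1 passed too, which makes 5 of 7. With dim genes left out, 28.9% of the brighter genes fell. NUP214 also passed without FaDU shControl replicate 3. RANBP2, the SUMO ligase of the cytoplasmic filaments, changed by 0.10 (adjusted p = 0.262). RANBP2 has near-identical RGPD copies, and 6 further probe sets shared with them were not used. In the nuclear basket, NUP153 fell by 0.27 (SE 0.05, adjusted p = 0.00223), whereas TPR and NUP50 changed by 0.08 and 0.02 (adjusted p = 0.347 and 0.892). Among the relatives of nucleoporins, NUP62CL fell by 0.29 (SE 0.09, adjusted p = 0.0338), a call that ended without FaDU shControl replicate 1 or 2 or FaDU shTP63 replicate 1 or 3 (adjusted p of up to 0.13).

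NUP58, an FG nucleoporin of the central channel, was the exception among pore proteins and was the only one of the 52 genes to pass in both lines. NUP58 (probe set 7968132) had 10.61, 10.61 and 10.58 in FaDU shTP63, against 10.38, 10.31 and 10.31 in FaDU shControl. In JHU-029 it had 9.86, 9.90 and 9.90 in shTP63, against 9.68, 9.62 and 9.54 in shControl. All knockdown arrays lay above all control arrays of their line. The rise in NUP58 was 0.27 in FaDU (SE 0.05, adjusted p = 0.002). It was 0.27 in JHU-029 with the same error (adjusted p = 0.0144), and 1.83% of all genes passed in both lines with the same sign. The JHU-029 call ended without shControl replicate 2 or 3 or shTP63 replicate 2 or 3 of that line (adjusted p of up to 0.0816). NUP54, which binds NUP58 in the channel, changed by -0.05 in FaDU (adjusted p = 0.615).

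**Figure D2:**
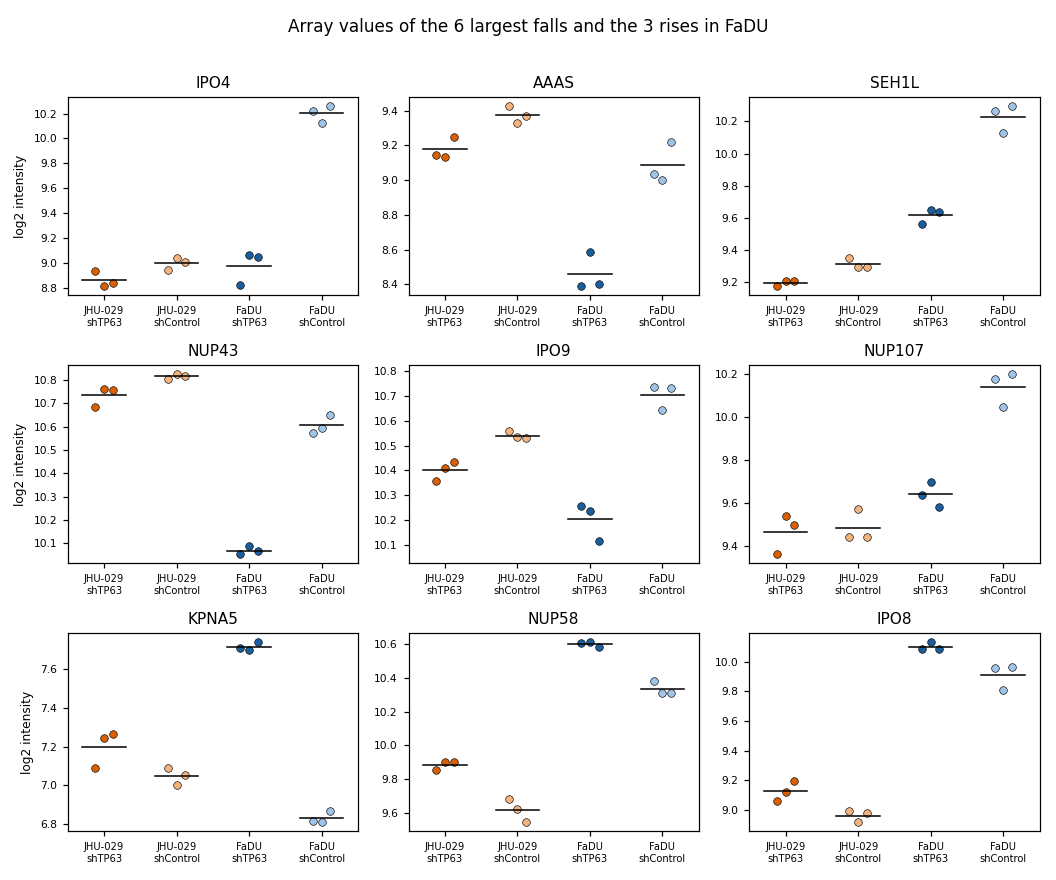
Log2 intensity on each of the 12 arrays (points) and group means (lines) for the 6 genes with the largest falls and the 3 genes that rose in FaDU, each panel with its own vertical scale. IPO4 in FaDU shTP63 lies at 8.82 to 9.06, close to the JHU-029 arrays at 8.81 to 9.04, while the FaDU shControl arrays lie at 10.13 to 10.26.

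The largest change of all 52 genes was that of IPO4 (probe set 7978132), an importin beta type receptor that carries histones into the nucleus. IPO4 had 8.82, 9.06 and 9.05 in FaDU shTP63, against 10.22, 10.13 and 10.26 in FaDU shControl. It fell by 1.22 (SE 0.07, adjusted p = 2.01e-07), a 2.33-fold decrease, and the lowest control array stood above the highest knockdown array by far more than the spread within either group. Of the 9 import receptors of the importin beta type, 4 fell and 1 rose in FaDU. Of all genes 14.2% fell and 12.5% rose, and of the brighter genes 28.9% and 21.7%. IPO9 (probe set 7908732), a receptor of histones H2A and H2B and of actin, had 10.26, 10.24 and 10.11 in FaDU shTP63, against 10.73, 10.64 and 10.73 in FaDU shControl. It fell by 0.50 (SE 0.06, adjusted p = 2.99e-05) with no overlap between the groups. IPO5, which imports ribosomal proteins and histones, fell by 0.43 (SE 0.05, adjusted p = 3.73e-05). KPNB1, importin beta itself, fell by 0.21 (SE 0.06, adjusted p = 0.0216), lost without FaDU shControl replicate 1 or FaDU shTP63 replicate 1 or 3 (up to 0.0836).

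IPO8 (probe set 7962085), a receptor related to IPO7, had 10.09, 10.13 and 10.09 in FaDU shTP63, against 9.96, 9.81 and 9.97 in FaDU shControl. It rose by 0.19 (SE 0.06, adjusted p = 0.0308), with groups that came close without overlapping, and the call ended without FaDU shControl replicate 2 or any FaDU shTP63 replicate (up to 0.107). IPO7 changed by 0.16 (adjusted p = 0.0662), and passed under quantile normalisation, cyclic loess, a filter on dim genes and a variance trend, and without FaDU shControl replicate 3 or JHU-029 shTP63 replicate 1. TNPO1, transportin, changed by 0.03 (adjusted p = 0.738), and IPO11 and IPO13 both by -0.05 (adjusted p = 0.652 and 0.647).

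Of the 7 importin alpha genes, KPNA5 alone passed in FaDU. KPNA5 (probe set 8121632) had 7.71, 7.70 and 7.74 in FaDU shTP63, against 6.82, 6.81 and 6.87 in FaDU shControl. It rose by 0.89 (SE 0.06, adjusted p = 4.44e-07), a 1.85-fold increase, and its FaDU shControl arrays lay below the median of all genes, which was 7.20 to 7.34 per array. The other 6 changed by -0.16 to 0.05, with KPNA2, the importin alpha of proliferating cells, at -0.01 (SE 0.05, adjusted p = 0.918). KPNA4, at -0.16 (adjusted p = 0.093), passed with dim genes left out, with a variance trend, and without FaDU shControl replicate 2 or FaDU shTP63 replicate 3 (changes of -0.21 and -0.23). KPNA7, at -0.15 (adjusted p = 0.343), passed without FaDU shTP63 replicate 2, where its change was -0.28.

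**Figure D3:**
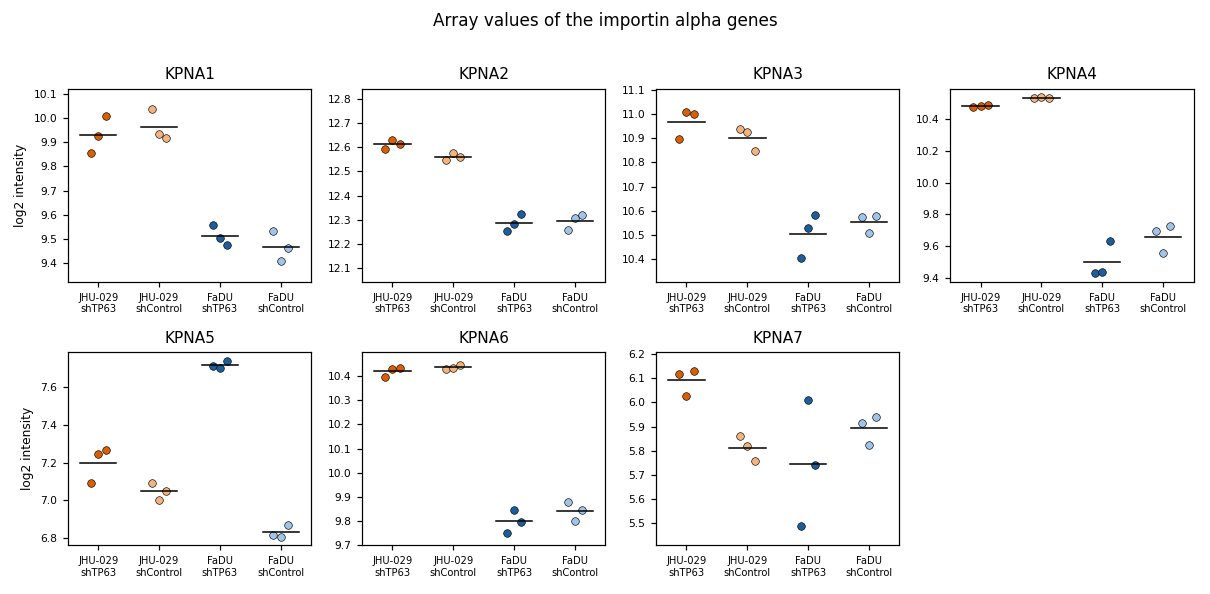
Log2 intensity on each array (points) and group means (lines) of the 7 importin alpha genes, each panel with its own vertical scale. KPNA5 in FaDU shTP63 stands at 7.70 to 7.74 above all other arrays of that gene, and for KPNA1, KPNA2, KPNA3, KPNA4 and KPNA6 every FaDU array lies below every JHU-029 array.

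Among the 6 export receptors, 2 fell in FaDU and 0 rose, beside 14.2% of all genes and 28.9% of the brighter genes falling. XPO6, the exportin of actin and profilin, had 10.44, 10.57 and 10.50 in FaDU shTP63, against 11.01, 10.97 and 11.03 in FaDU shControl. XPO6 fell by 0.50 (SE 0.05, adjusted p = 2.09e-05), with no overlap. XPO4, an exportin of eIF5A and SMAD3, fell by 0.34 (SE 0.07, adjusted p = 0.00217). XPO1, the main exportin of proteins with a leucine-rich signal, changed by -0.02 (adjusted p = 0.854). CSE1L, which returns importin alpha to the cytoplasm, changed by 0.02 (adjusted p = 0.809), XPO7 by 0.00 (adjusted p = 0.982) and XPO5, the exportin of microRNA precursors, by -0.10 (adjusted p = 0.2).

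In JHU-029, 1 of the 52 genes passed, NUP58, and 0 fell. This share of 1.92% compares with 3.15% of all genes (1.8% higher, 1.35% lower). The changes ran from -0.22 for NUP50 (SE 0.09, adjusted p = 0.238) to 0.28 for KPNA7 (SE 0.10, adjusted p = 0.205), with a median of 0.01 and 25 of 52 below 0. Although few genes passed, the 3 knockdown arrays lay wholly on one side of the 3 control arrays for 25 of the 52 (48.1%), against 24.9% of all genes. The 52 genes also varied less between arrays (median SD 0.0496 in JHU-029, against 0.0798 over all genes). For non-overlap, here, in FaDU or between the controls, no share over the brighter genes alone was taken. AAAS was 1 of the 25, with 9.14, 9.14 and 9.25 in JHU-029 shTP63, against 9.43, 9.33 and 9.37 in JHU-029 shControl, a change of -0.20 (SE 0.07, adjusted p = 0.21). IPO4 had 8.93, 8.81 and 8.84 in JHU-029 shTP63, against 8.95, 9.04 and 9.01 in JHU-029 shControl, a change of -0.14 (SE 0.07, adjusted p = 0.416).

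The difference between the lines was tested directly, as the FaDU effect minus the JHU-029 effect. It passed for 12 of the 52 genes (23.1%, against 13.2% of all genes), 11 with a lower effect in FaDU (21.2%, against 8.25%) and 1 with a higher one (1.92%, against 4.97%). With dim genes left out, 14 of 47 were lower (29.8%, against 20.9% of the brighter genes) and 0 higher (against 10.8%), but that filter removed KPNA5, the 1 gene with a higher effect, and NUP62CL. The largest were those of IPO4 at -1.09 (SE 0.10, adjusted p = 4.32e-05) and KPNA5 at 0.74 (SE 0.08, adjusted p = 0.000132). Among Y complex genes, SEH1L stood at -0.49 (SE 0.08, adjusted p = 0.00156), NUP107 at -0.48 (SE 0.10, adjusted p = 0.00588) and NUP43 at -0.45 (SE 0.07, adjusted p = 0.00101). In JHU-029, SEH1L had 9.17, 9.21 and 9.21 in shTP63, against 9.35, 9.29 and 9.30 in shControl, and NUP107 had 9.36, 9.54 and 9.50 in shTP63, against 9.44, 9.57 and 9.44 in shControl. NUP43 had 10.69, 10.76 and 10.76 in JHU-029 shTP63, against 10.80, 10.82 and 10.82 in JHU-029 shControl. SEH1L and NUP43 lay apart there by small amounts, and the NUP107 groups overlapped. XPO6 stood at -0.43, AAAS at -0.43, IPO9 and XPO4 at -0.36, and IPO5 at -0.33. NUP62CL reached -0.55 (SE 0.13, adjusted p = 0.0138): it had 6.12, 6.48 and 6.33 in FaDU shTP63, against 6.62, 6.65 and 6.52 in FaDU shControl, and 7.62, 7.82 and 7.76 in JHU-029 shTP63, against 7.59, 7.40 and 7.43 in JHU-029 shControl. Its knockdown arrays lay below the controls in FaDU and above them in JHU-029, though the change of 0.26 in JHU-029 did not pass (adjusted p = 0.166). All its FaDU arrays lay below the median of all genes. NUP42 stood at -0.42 (adjusted p = 0.0284), which missed the threshold in 7 of the 12 fits without 1 array: those without any JHU-029 shControl replicate, FaDU shControl replicate 2 or 3, or JHU-029 shTP63 replicate 1 or 2 (up to 0.0721). It was also lost under quantile normalisation and cyclic loess. XPO4 missed it in 6: those without JHU-029 shControl replicate 2 or 3, FaDU shControl replicate 1, JHU-029 shTP63 replicate 2, or FaDU shTP63 replicate 1 or 3 (up to 0.0693). Without FaDU shControl replicates 1 and 2, which leaves 1 control array, the difference calls of NUP62CL, NUP42 and XPO4 were lost.

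Averaged over both lines, 3 genes rose and 17 fell (5.77% and 32.7%, against 11.3% and 11.7% of all genes, and 38.5% against 23% together). No share over the brighter genes alone was taken for the mean effect. Most of the 20 genes had passed in FaDU, and 2 passed in neither line alone. NUP214, a nucleoporin of the cytoplasmic filaments known from leukaemia fusions, had 9.65, 9.72 and 9.71 in FaDU shTP63, against 9.90, 9.83 and 9.79 in FaDU shControl. In JHU-029 it had 10.15, 10.10 and 10.13 in shTP63, against 10.30, 10.26 and 10.26 in shControl. The knockdown arrays lay below the controls in each line, with a mean change of -0.14 (SE 0.04, adjusted p = 0.0108), a call lost without FaDU shControl replicates 1 and 2 (adjusted p = 0.0745). NUP98, another fusion partner in leukaemia, changed by -0.12 on average (SE 0.04, adjusted p = 0.036), a call lost in 9 of the 12 fits without 1 array (up to 0.0887), the exceptions being those without FaDU shControl replicate 2, JHU-029 shTP63 replicate 2 or FaDU shTP63 replicate 3.

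Between the lines themselves, under control shRNA, 44 of the 52 genes differed (84.6%, against 63.8% of all genes), 19 higher and 25 lower in FaDU (36.5% and 48.1%, against 33.4% and 30.4%). Centring each array on its median shifted the median difference of all genes from 0.05 to 0.16 and turned this split to 24 higher and 20 lower, and quantile normalisation gave 23 and 21. No share of calls over the brighter genes alone was taken between the controls. The 7 calls lost under some scaling or without FaDU shControl replicates 1 and 2 were those of AAAS, IPO7, IPO9, KPNA5, NUP43, XPO4 and XPO6, and those of IPO9 and XPO6 were also lost without single control arrays (IPO9 without JHU-029 shControl replicate 2 or 3 or FaDU shControl replicate 1 or 3, XPO6 without JHU-029 shControl replicate 1 or 2 or FaDU shControl replicate 2). The groups did not overlap for 47 genes (90.4%, against 69% of all genes). Of the 8 genes that did not pass, IPO11, NUP35, NUP93 and XPO1 passed, as higher in FaDU, under each of the 3 other scalings. The labels do not state that both lines went through 1 joint normalisation, and every difference between the lines rests on that step.

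**Figure D4:**
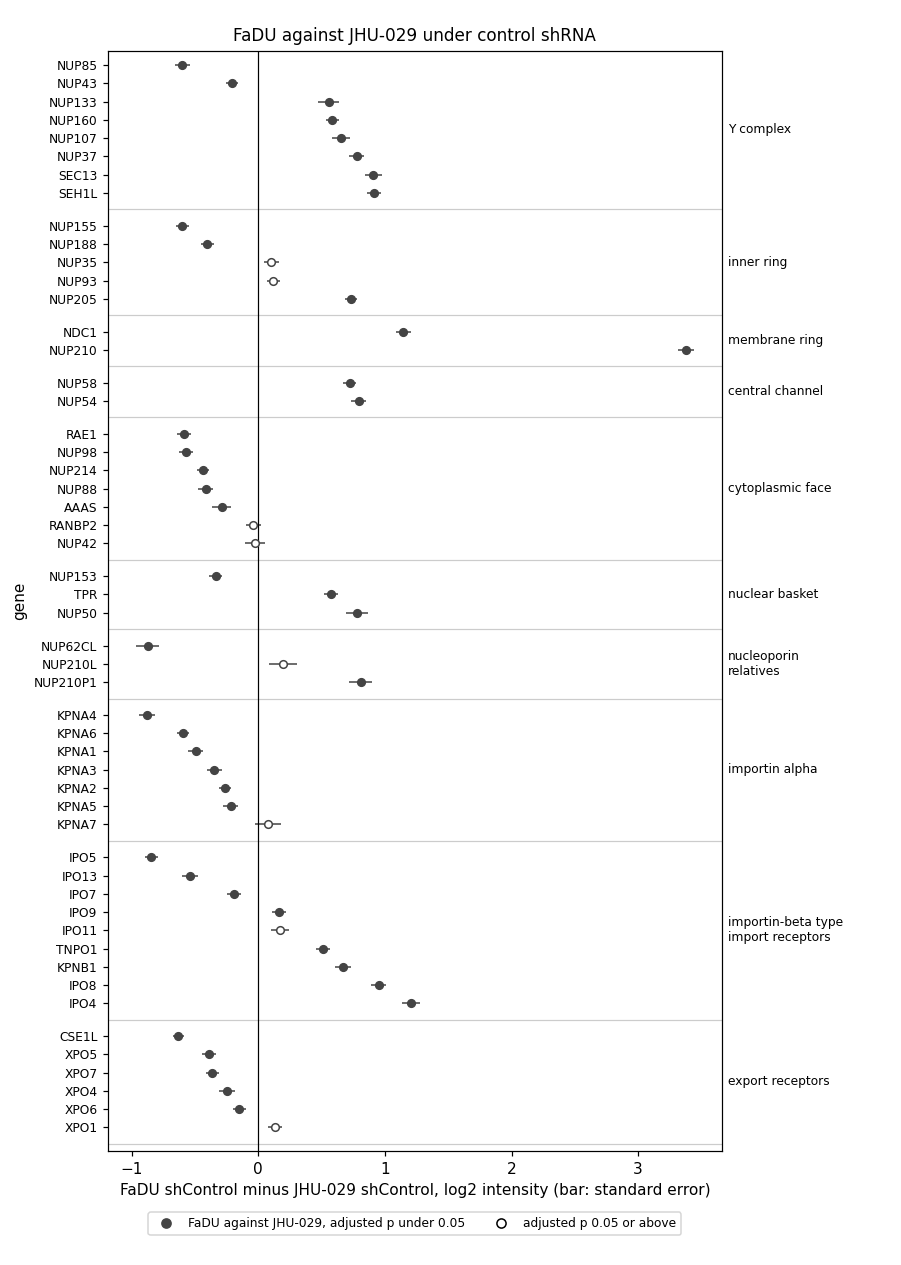
FaDU shControl minus JHU-029 shControl (log2 intensity, with the standard error of the limma fit) for the 52 genes by place or role, with filled points for an adjusted p under 0.05. NUP210 stands alone at 3.38, and 6 of the 7 importin alpha genes lie below 0.

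NUP210 (probe set 8085431), the gp210 protein of the pore membrane whose level is known to differ between cell types, set the lines apart most. It had 10.95, 10.78 and 10.78 in FaDU shControl, against 7.41, 7.45 and 7.51 in JHU-029 shControl. This was a 10.4-fold difference (log2 3.38, SE 0.06, adjusted p = 4.97e-13), and the shTP63 arrays, at 10.87, 10.95 and 10.96 in FaDU and 7.52, 7.67 and 7.63 in JHU-029, kept it. The pseudogene NUP210P1 differed by 0.81 in the same direction (SE 0.09, adjusted p = 4.66e-06), and signal from NUP210 itself on that probe set cannot be told apart from its own. NDC1, the other membrane nucleoporin, had 11.32, 11.31 and 11.23 in FaDU shControl, against 10.10, 10.17 and 10.15 in JHU-029 shControl, a 2.21-fold difference (log2 1.15, SE 0.06, adjusted p = 1.84e-09).

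The scaffold and the receptors differed by gene. Counts by place or role cover few genes each and stand beside 33.4% of all genes higher and 30.4% lower in FaDU shControl. Of the 8 genes grouped with the Y complex, 6 were higher in FaDU, led by SEH1L (0.92, SE 0.06) and SEC13 (0.91, SE 0.07). NUP85 and NUP43 were lower (-0.60 and -0.21). SEH1L had 10.26, 10.13 and 10.29 in FaDU shControl, against 9.35, 9.29 and 9.30 in JHU-029 shControl. NUP37 (0.78), NUP107 (0.65), NUP160 (0.58) and NUP133 (0.56) were higher as well. SEC13 had 9.86, 9.72 and 9.91 in FaDU shControl, against 8.89, 8.88 and 8.99 in JHU-029 shControl. NUP85 had 9.13, 9.13 and 9.26 in FaDU shControl, against 9.76, 9.78 and 9.78 in JHU-029 shControl. On the cytoplasmic face 5 of 7 genes were lower in FaDU and 0 higher, with RAE1 at -0.59, NUP98 at -0.57, NUP214 at -0.44, NUP88 at -0.41 and AAAS at -0.29. The channel genes NUP54 (0.79) and NUP58 (0.72) were higher. In the basket NUP50 (0.78) and TPR (0.57) were higher and NUP153 was lower (-0.34). In the inner ring NUP205 was higher (0.73) and NUP155 and NUP188 were lower (-0.60 and -0.40). NUP155 had 11.43, 11.32 and 11.34 in FaDU shControl, against 11.96, 11.96 and 11.97 in JHU-029 shControl.

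All importin alpha genes except KPNA7 were lower in FaDU, 6 of 7, against 30.4% of all genes lower. KPNA4, which carries NF-kB among other cargo, differed most. It had 9.70, 9.55 and 9.73 in FaDU shControl, against 10.54, 10.54 and 10.53 in JHU-029 shControl (log2 -0.88, SE 0.07, adjusted p = 7.59e-08). Export receptors were lower too, 5 of 6, with CSE1L at 11.27, 11.26 and 11.31 in FaDU shControl, against 11.92, 11.91 and 11.91 in JHU-029 shControl (log2 -0.63, SE 0.05, adjusted p = 5.3e-08). KPNA6 (-0.59), KPNA1 (-0.49), KPNA3 (-0.35), KPNA2 (-0.27) and KPNA5 (-0.22) were lower by less, as were XPO5 (-0.39), XPO7 (-0.36), XPO4 (-0.25) and XPO6 (-0.15). The lower calls of KPNA5 and XPO4 are among those lost under median centring. Import receptors of the importin beta type split, 5 higher and 3 lower, against 33.4% and 30.4% of all genes. IPO4 was 2.30-fold higher in FaDU shControl (log2 1.20, SE 0.07), and IPO8 had 9.96, 9.81 and 9.97 there, against 8.99, 8.91 and 8.97 in JHU-029 shControl (log2 0.95, SE 0.06). IPO5 had 9.85, 9.77 and 9.77 in FaDU shControl, against 10.63, 10.64 and 10.65 in JHU-029 shControl (log2 -0.84, SE 0.05). KPNB1 (0.67), TNPO1 (0.51) and IPO9 (0.16) were higher, and IPO13 (-0.54) and IPO7 (-0.19) lower. NUP62CL was also lower in FaDU shControl, by a log2 difference of -0.87 (SE 0.09).

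The partners of these genes in the pathway were read from separate lists, whose counts stand beside 12.5% of all genes rising and 14.2% falling in FaDU. With the dimmer part of all genes left out, 21.7% of the brighter genes rose and 28.9% fell. Of 7 measured genes listed for the Ran cycle, 5 fell and 0 rose in FaDU, against 14.2% and 12.5% of all genes, with a median of -0.19 against 0.02 over all genes. The 7 were RAN, NUTF2, RANGRF, RANGAP1, RANBP1, RANBP3 and RCC2, without RCC1, and RANBP3 and RCC2 did not pass. NUTF2, which returns Ran to the nucleus, fell by 0.48 in FaDU (adjusted p = 3.73e-05, SE 0.05). NUTF2 was also the only Ran cycle call in JHU-029, where it fell by 0.22 (adjusted p = 0.0494). RANGRF fell by 0.47 (SE 0.06, adjusted p = 0.0001) in FaDU, and Ran itself fell by 0.16 (SE 0.05, adjusted p = 0.0317). Of 7 further transport receptors, 2 fell and 1 rose in FaDU, against 14.2% and 12.5% of all genes: XPOT, the exportin of tRNA, fell by 0.71 (SE 0.06, adjusted p = 2.06e-06), TNPO2 fell by 0.60 (SE 0.06, adjusted p = 1.03e-05) and the snRNA export adaptor PHAX rose by 0.20 (SE 0.07, adjusted p = 0.0373). In JHU-029, 0 of these passed. Of 21 measured mRNA export genes, 8 fell and 0 rose in FaDU (median -0.10). The shares were 14.2% and 12.5% over all genes, and 28.9% and 21.7% over the brighter genes. Among the mRNA export genes, the THO subunit THOC6 fell by 0.36 (SE 0.06, adjusted p = 0.000551) and the RNA helicase DDX19B by 0.34 (SE 0.07, adjusted p = 0.00281). In JHU-029, 0 passed.

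Of 15 nuclear envelope genes, 3 rose and 2 fell in FaDU, shares near the 12.5% and 14.2% of all genes. Among them were the inner membrane protein LEMD3 rising by 0.41 (SE 0.07, adjusted p = 0.000527), TOR1AIP1 rising by 0.24 (SE 0.05, adjusted p = 0.00154), and the lamin LMNB2 falling by 0.26 (SE 0.06, adjusted p = 0.00623). The lamina protein TMPO fell by 0.18 (SE 0.06, adjusted p = 0.0343). In JHU-029 the nesprin SYNE2 fell by 0.52 (SE 0.10, adjusted p = 0.0127), 1 of 15. A list of further pore-related genes had 3 of 6 measured, CENPF and the POM121-like genes POM121L12 and POM121L2. In FaDU CENPF fell by 0.25 (SE 0.06, adjusted p = 0.0111) and POM121L12 rose by 0.22 (SE 0.07, adjusted p = 0.0445), and 0 passed in JHU-029. The POM121L12 means, 5.93 in FaDU shTP63 and 5.71 in FaDU shControl, lay below the median of all genes. Proliferation genes were read beside these results. In FaDU, 18 of 40 S phase genes fell and 2 rose (median -0.16). Of 39 genes of G2 and mitosis, 8 fell and 2 rose (median -0.02). Over all genes 14.2% fell and 12.5% rose, and over the brighter genes 28.9% fell and 21.7% rose. GINS3 and GINS4 of the replication helicase fell by 0.74 and 0.61, and cyclin E2 (CCNE2) rose by 1.07. In JHU-029, 2 S phase genes and 4 genes of G2 and mitosis rose and 0 fell, against 1.8% of all genes rising and 1.35% falling. Their part in the result was not tested.

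Markers of other cells were read beside the FaDU result. The summed linear intensity of 10 endothelial markers was 1293 to 1377 in FaDU shTP63, against 898 to 933 in FaDU shControl, with CDH5 and ESAM rising. CDH5 was by far the brightest endothelial marker, at a mean log2 of 9.69 in FaDU shTP63, against 8.69 in FaDU shControl. The sum of 10 immune markers was 2402 to 2681 in FaDU shTP63, against 2313 to 2355 in FaDU shControl. CD14 and LYZ passed as rising. Most of the immune sum came from CD68, at a mean log2 of 10.96 against 10.85, which did not pass (adjusted p = 0.196). The sum of 10 fibroblast markers was 1513 to 1570 in FaDU shTP63, against 1332 to 1399 in FaDU shControl. Only 1 of the 10 passed, FBLN1, which rose and was the brightest of them in FaDU (mean log2 9.905 in shTP63, against 9.67 in shControl). For 10 keratinocyte markers the sum was 16368 to 16849 in FaDU shTP63, against 23523 to 23843 in FaDU shControl, with 7 falling. Array values carry no true 0 for any marker, and the part of these markers in the result was not tested. In JHU-029, 1 keratinocyte marker rose and 0 of the 30 others passed, with sums of 37429 to 39385 in shTP63, against 40187 to 42807 in shControl, for the keratinocyte list.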

How the data were processed

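Gene expression was measured on 12 single-colour arrays, 3 per group. Per the submitters' processing notes, the authors made the deposited intensity values by robust multi-array averaging (RMA) in R 2.15.1. The table holds linear intensity (array medians 88.2 to 94.6). The RMA implementation, the probe set definition and whether all 12 arrays were normalised together are not given in the sources used here. Array values have no counts behind them, so precision is limited by how many arrays there are.

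Of 32321 probe sets, 19159 had 1 gene symbol, 1387 several and 11775 none. 19129 matched the reference table by Entrez gene ID. The probe set with the highest mean stood for a gene. Values were put on log2 with no offset, and the 4 groups were fitted together with limma 3.58.1 in R 4.3.3 (8 residual and 4.16 prior degrees of freedom). P-values are two-sided moderated tests, with Benjamini-Hochberg adjustment across the 18405 genes of each contrast and a threshold of 0.05. SE is that of the fit. The pipeline was tested on simulated data.

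The 52 genes and all lists were chosen with earlier results of these data known. Array values are printed for genes past the threshold whose groups of 3 arrays did not overlap, up to 6 per direction and contrast by size of change. Other genes past the threshold in a line, their difference or between controls are named with their change, and those of the mean effect mostly by count. From each pathway list up to 2 genes per direction and line are named. XPO6, NUP214 and the JHU-029 values of AAAS and IPO4 were added after their values were seen, as were RAN, the CENPF and marker examples and genes named for not passing. Replicate numbers were not used to pair the arrays in the main fit, and the labels do not say whether they pair them. Deviations of same-numbered arrays correlated at -0.339 to 0.013, which with 3 arrays per group cannot show that pairing was absent. Alternatives were other scalings, probe set rules, a filter on dim genes, a variance trend, separate fits per line, replicate blocks, array weights, and fits without 1 array or without the FaDU controls whose titles carry an extra word.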

Additional observations from a re-analysis of the deposited data

Results flagged for a closer look

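The effect of TP63 knockdown differed between FaDU and JHU-029 by the interaction test of limma for 12 of the 52 genes. On the log2 scale, as the FaDU effect minus the JHU-029 effect, the difference was -1.09 for IPO4 (adjusted p = 4.32e-05), -0.55 for NUP62CL (0.0138), -0.49 for SEH1L (0.00156), -0.48 for NUP107 (0.00588) and -0.45 for NUP43 (0.00101). It was -0.43 for XPO6 (0.00248), -0.43 for AAAS (0.0172), -0.42 for NUP42 (0.0284), -0.36 for IPO9 (0.00929), -0.36 for XPO4 (0.0255) and -0.33 for IPO5 (0.00847). For KPNA5 it was 0.74 (0.000132). IPO4 in FaDU shTP63 averaged 8.98 ± 0.134 (SD, n = 3), against 10.20 ± 0.0682 in FaDU shControl, and in JHU-029 8.86 ± 0.0644 in shTP63, against 9.00 ± 0.0488 in shControl.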

How the results depend on the processing

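No call of the 52 genes changed its sign under any alternative run. The count in FaDU (21) was 16 to 23 without 1 array, that of the difference between lines (12) was 10 to 13, that between the lines' controls (44) was 42 to 45, and that of the mean effect (20) was 15 to 19. The count in JHU-029 (1) was 0 to 1, the 0 standing without shControl replicate 2 or 3 or shTP63 replicate 2 or 3 of that line. It was 2 with a trend in the variance prior, 2 with each line fitted alone and 7 with array weights (6 higher, 1 lower). A fixed replicate block gave 0 in JHU-029, 7 for the difference and 13 for the mean effect, while it cost 5 of the FaDU calls (IPO8, KPNB1, NUP188, NUP62CL and NUP93, leaving 16), the same 5 that were lost with each line fitted alone, and a random replicate block gave the main counts except 45 between the controls. The replicate numbers share no label beyond the number. Without the FaDU controls whose titles carry an extra word, 13 genes passed in FaDU and 12 for the mean effect, with 1 FaDU control array assumed to vary like the other groups. Of the FaDU calls, 12 of 21 were kept under every alternative that included the gene and every fit without 1 array. So were 6 of 12 for the difference, 37 of 44 between the controls, 12 of 20 for the mean effect and 0 of 1 in JHU-029. The filter on dim genes removed some of these genes, so they were not tested under it. They are KPNA5 in FaDU, the difference and the mean effect, and NUP62CL and NUP210P1 between the controls. In the mean effect, calls of NUP188, NUP42, NUP93, NUP98 and XPO4 were lost in 7 to 9 of the 12 fits without 1 array.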
